A study of Mus musculus with 4 samples.

Results

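Interleukins are secreted signalling proteins that carry messages between leukocytes and the tissues around them, and the genes of these ligands and of their receptors were examined here in 2 regions of the mesothelium, the sheet of cells that lines the body cavities and coats the organs within them. The members were all genes whose symbol in the array annotation begins with Il and a number, taken from probes paired with exactly 1 gene symbol. They made up 76 of the 19938 genes measured, namely 38 ligands and antagonists, 37 receptors, decoy receptors and binding proteins, and 1 antisense transcript, Il1bos. Probes that the annotation pairs with several symbols were left out by this rule, among them 3 for Il22 and Il4i1. The primary receptors of interleukin-1 and interleukin-33, the common gamma chain and the interleukin-11 receptor were not analysed here.

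The tissues came from adult, untreated Wt1-cre;Rosa26ReYFP mice on a c57bl/6 background. In these animals a Cre driven by Wt1, a gene of mesothelial cells, switches on a yellow fluorescent reporter, and every array of the series shares this genotype. Total RNA of visceral mesothelium, taken from the omentum, was hybridized to 2 Affymetrix Mouse Gene 1.0 ST arrays, and RNA of parietal mesothelium, stripped from the body wall, to another 2. The mesothelial content of the input was judged by the reporter, and the sources used here name no cell sort before the arrays. The labels call the arrays biological replicates of each tissue but name no animal. A p-value here sets a difference against the spread between arrays, moderated by that of all genes. The number of arrays limits the precision. Values are log2 RMA signals, on which a difference of 1 is a doubling. Signals of different genes depend on their probes and are not set against each other.

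Interleukins act through receptors built of several chains, in which a ligand-specific chain commonly pairs with a shared signalling chain. Receptors of the interleukin-1 and interleukin-17 families pass the signal through adaptor proteins to NF-kB, whereas most other interleukin receptors use JAK kinases and STAT transcription factors. Mesothelial cells of the peritoneum are known to release and answer such cytokines, and the omentum also holds clusters of leukocytes within its fat.

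Arrays of a tissue resembled each other closely, with Pearson's r over all probes of 0.992 between visceral arrays and 0.993 between parietal arrays, against 0.965 to 0.969 between tissues. A log2 signal of 6.74, the 95th percentile of 1027 olfactory receptor genes, served as the yardstick for dim probes and is called the olfactory receptor level below. All 15 mesothelial markers lay above it on the mean of the arrays, with 1 called for the visceral and 9 for the parietal side. The macrophage and dendritic cell list averaged log2 signals of 9.88 and 9.99 on the visceral arrays, against 8.06 and 8.20 on the parietal arrays. Of its genes, 13 of 17 were higher in visceral mesothelium. The dendritic cell markers Itgax, Flt3 and Zbtb46 were among those not called (log2 differences 0.08, 0.15 and 0.05). Mast cell and granulocyte markers averaged 8.05 and 7.80 on the visceral arrays, against 6.46 and 6.55 on the parietal arrays, with 8 of 13 higher in visceral mesothelium. B and plasma cell markers averaged 7.39 and 7.68, against 6.29 and 6.28, with 5 of 10 higher. T and NK cell markers averaged 6.07 and 6.19 on the visceral arrays and 6.00 and 6.03 on the parietal arrays, with 1 of 12 genes, Cd3g, higher in visceral mesothelium and 8 of the 12 not above the olfactory receptor level. All 17 skeletal muscle markers were higher in parietal mesothelium, with list means of 6.81 and 6.86 on the visceral arrays and 11.80 and 12.19 on the parietal arrays. Adipocyte markers averaged 7.30 and 7.41 on the visceral arrays, against 8.59 and 8.003 on the parietal arrays. Their 1 call of 9 was Car3, higher in parietal mesothelium (log2 difference -5.18) as the muscle markers were. The cell source of Car3 was not tested. Retn had 9.46 on parietal replicate 1 and 7.46 on parietal replicate 2, and Fabp4 had 8.94 and 8.07. Adipoq, Cidec, Plin1 and Lep were also higher on parietal replicate 1, while Lipe, Pparg and Car3 were lower there. Fibroblast markers gave 3 calls for visceral and 5 for parietal mesothelium of 12, and endothelial markers 1 and 2 of 12. In such bulk RNA, fewer cells of a type and less RNA per cell cannot be told apart.

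**Figure D1:**
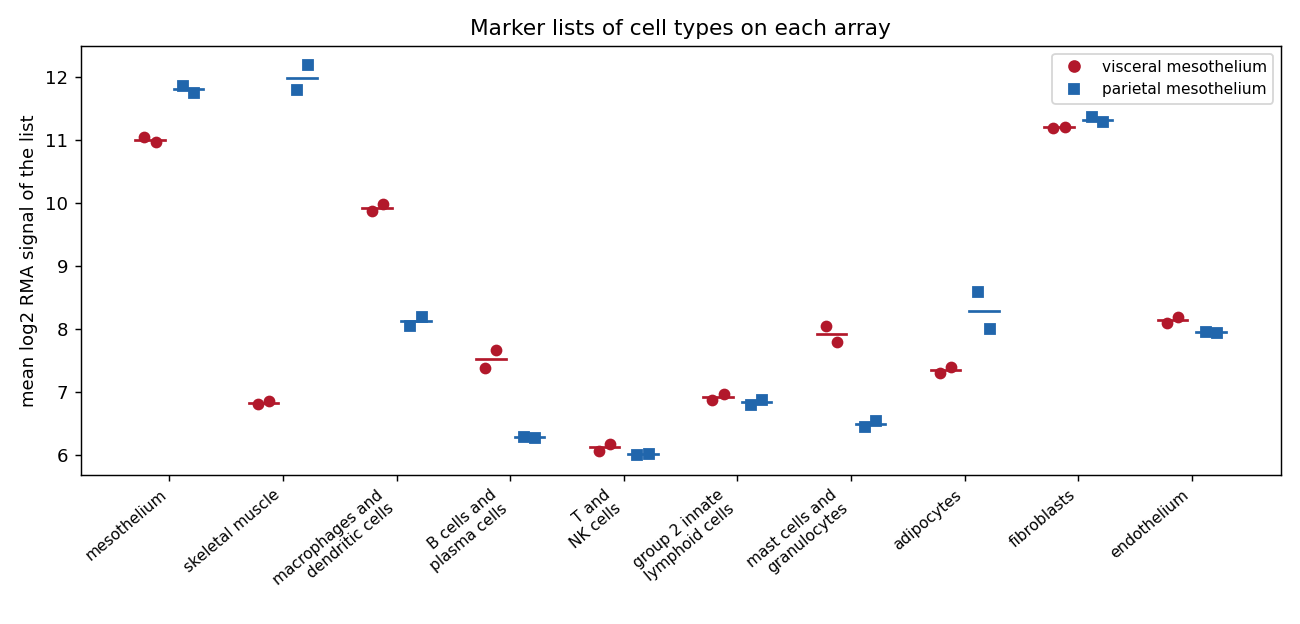
Mean log2 RMA signal of each cell type marker list (y axis) on each array, circles standing for visceral and squares for parietal arrays and a bar at the mean of 2 arrays. The macrophage list lies at 9.88 and 9.99 on the visceral arrays against 8.06 and 8.20 on the parietal arrays, and the muscle list is higher on the parietal arrays.

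Of the interleukin family, 3 ligands and 8 receptors differed between the tissues. A gene was called when its fold reached 1.5 and its adjusted p from limma (Benjamini-Hochberg, over all 19938 genes) lay under 0.05, and 9.60% of all genes were. Among the 76 members 11 were called. Visceral mesothelium was the higher in 7 of them, against 5.22% of all genes, and parietal mesothelium in 4, against 4.39%. The ligands contributed 3 of 38, namely Il34 and Il33 in visceral and Il18 in parietal mesothelium, a share of 7.89% that lies near that of all genes. The receptors contributed 8 of 37, or 21.6%, of which Il10ra, Il7r, Il22ra1, Il1rapl1 and Il27ra were higher in visceral mesothelium, and Il18r1, Il17re and Il6ra in parietal mesothelium. In RefSeq the called members lie on chromosome 8 (Il34 and Il27ra), 19 (Il33), 9 (Il18 and Il10ra), 1 (Il18r1), 6 (Il17re), 3 (Il6ra), 4 (Il22ra1), 15 (Il7r) and X (Il1rapl1). The share of ligands was not tested against that of receptors. Where the arrays of a gene, called or not, are said below not to overlap, this describes the values and adds no support to a difference. Between -0.2 and 0.2 on the log2 scale lay 26 of the 38 ligand differences and 12 of the 37 receptor differences, and the median difference was -0.029 for ligands and 0.12 for receptors, against 0.0015 for all genes. Without the fold threshold 14.2% of all genes passed, and 3 more members did, Il1a, Il10rb and Il6st.

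Many interleukin transcripts were dim. Of the members, 35 had a mean above the olfactory receptor level, 14 ligands and 21 receptors. Among these 35, 5 were higher in visceral mesothelium, against 7.01% of the genes above that level, and 4 in parietal mesothelium, against 6.01%. The other 2 called receptors, Il7r and Il1rapl1, had a mean below it. A gene can pass this limit through the tissue in which it is higher, so these counts describe the arrays and carry no test.

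**Figure D2:**
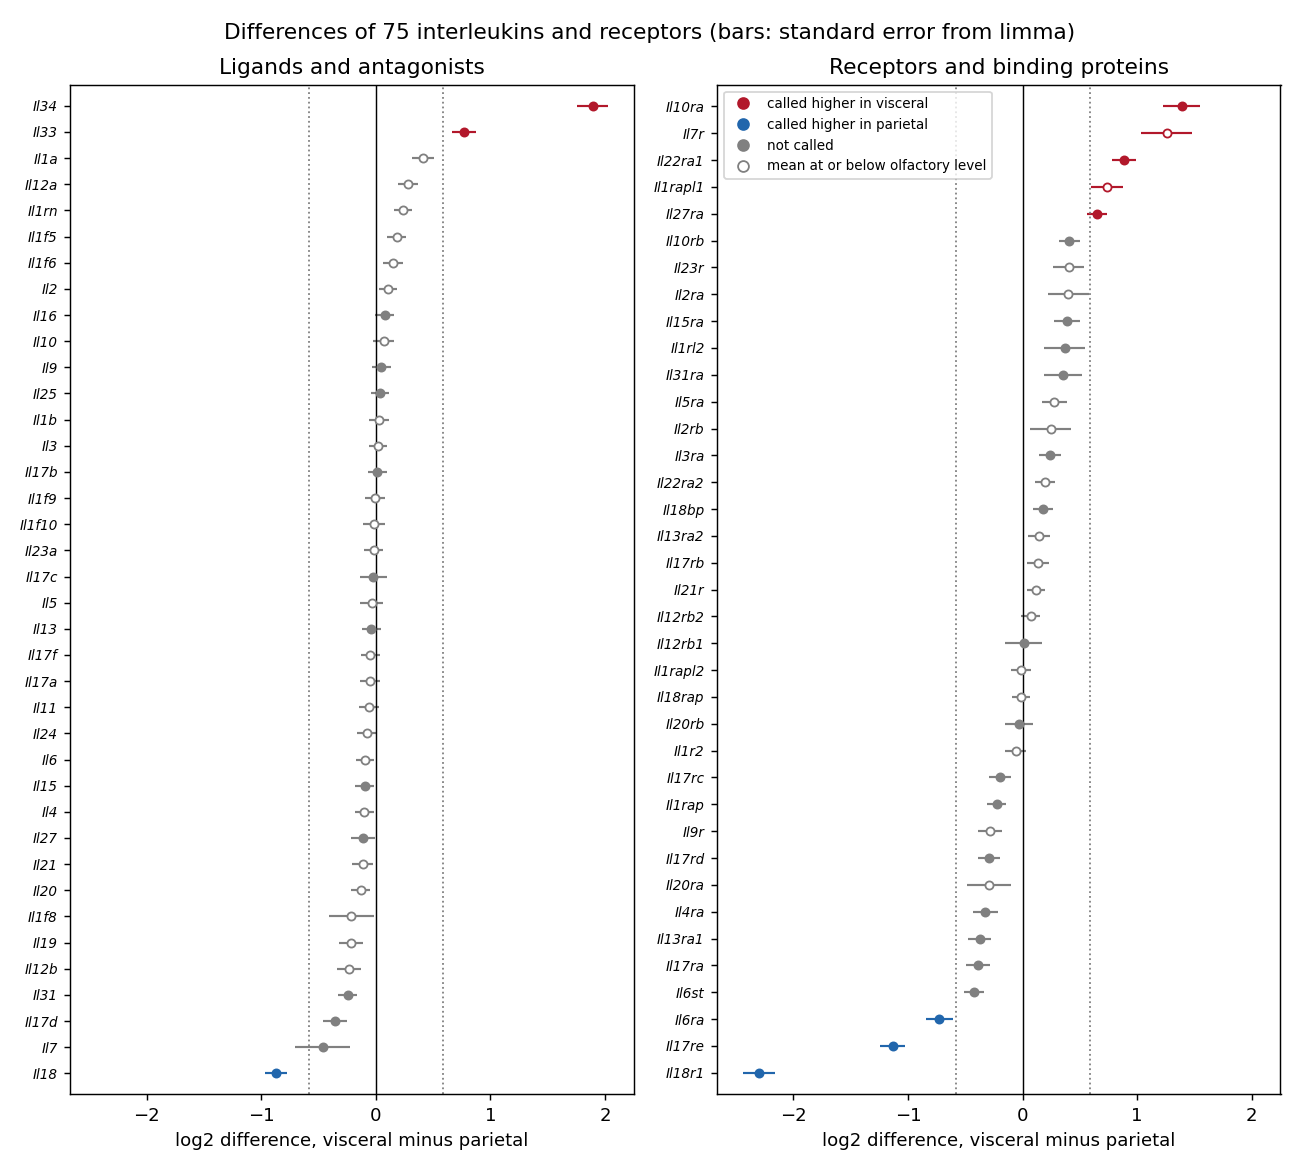
Log2 difference, visceral minus parietal, of 38 ligands and antagonists (left) and 37 receptors and binding proteins (right), with bars for the standard error from limma. Dotted lines mark the 1.5-fold threshold and open symbols a mean at or below the olfactory receptor level. Il34 lies at 1.89 among the ligands, and Il10ra at 1.39 and Il18r1 at -2.30 among the receptors.

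Il34, Il33 and Il18 were the ligands that differed. Il34, an alternative ligand of the macrophage growth factor receptor Csf1r, had log2 signals of 8.96 and 9.15 on the visceral arrays, against 7.33 and 7.00 on the parietal arrays. Both visceral arrays were high and the tissues did not overlap. Il34 was thus 3.71-fold higher in visceral mesothelium (log2 difference 1.89 ± 0.14, limma adjusted p = 0.000768, where ± gives the standard error here and below). Il33, a nuclear alarmin that damaged barrier and stromal cells release, had signals of 11.19 and 11.16 on the visceral arrays, against 10.28 and 10.53 on the parietal arrays. All 4 values were far above the olfactory receptor level and the tissues did not overlap. The transcript was 1.71-fold higher in visceral mesothelium (log2 difference 0.77 ± 0.11, adjusted p = 0.00766). Il18, a ligand that caspase-1 activates and that prompts interferon-gamma release, ran the other way, with 9.18 and 9.34 on the visceral arrays and 10.10 and 10.16 on the parietal arrays. Both parietal arrays lay above both visceral arrays, and Il18 was 1.83-fold higher in parietal mesothelium (log2 difference -0.87 ± 0.09, adjusted p = 0.00317). These 3 calls held with each array left out in turn, over log2 differences of 1.73 to 2.06 for Il34, 0.65 to 0.89 for Il33 and -0.95 to -0.79 for Il18. Fibroblasts and endothelium also bear Il33. Fibroblast markers averaged 11.20 and 11.21 on the visceral arrays, against 11.38 and 11.29 on the parietal arrays. This mean joins calls in both directions. Mfap5 (log2 difference 1.16), Pdgfrb (1.02) and Dpt (0.73) were higher in visceral mesothelium. Pi16 (-1.24), Thy1 (-0.87), Col1a2 (-0.85), Col1a1 (-0.82) and Lum (-0.72) were higher in parietal mesothelium. Endothelial markers averaged 8.11 and 8.20, against 7.96 and 7.95. Of the endothelial markers, Lyve1 was called for visceral mesothelium (log2 difference 3.37). Cdh5 (-0.60) and Esam (-0.69) were called for parietal mesothelium, and the other 9 were not called, among them Flt4 (-0.02) and Prox1 (-0.002). Mrc1 (2.69) and Cd163 (2.33) of the macrophage list were higher in the same tissue as Lyve1, and the cell source of Lyve1 was not tested. The part of fibroblasts or endothelium in the difference of Il33 was not tested.

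The 250 bases upstream of a start of Il33 and of Il18 are shown because these ligands differed in opposite directions. The sequences are from RefSeq, assembly GRCm38.p6, of which the promoter table used here matched 8 of the 11 called members, and they lie on the plus strand at chr19:29945540-29945789 for the second of 2 listed starts of Il33 and at chr9:50554450-50554699 for Il18. Capitals mark the TATA motif TATAAA on either strand.
Il33: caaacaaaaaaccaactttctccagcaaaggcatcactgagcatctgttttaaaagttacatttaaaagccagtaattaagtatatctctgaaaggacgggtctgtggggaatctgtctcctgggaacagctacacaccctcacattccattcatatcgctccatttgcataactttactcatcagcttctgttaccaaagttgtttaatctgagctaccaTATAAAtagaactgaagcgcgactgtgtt
Il18: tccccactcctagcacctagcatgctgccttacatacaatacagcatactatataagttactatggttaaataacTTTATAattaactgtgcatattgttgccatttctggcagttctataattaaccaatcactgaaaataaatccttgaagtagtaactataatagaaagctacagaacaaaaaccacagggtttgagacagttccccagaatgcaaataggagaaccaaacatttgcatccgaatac
In Il33 the motif lay on the plus strand at -29 to -24, counted in bases from the start, and the window of the other listed Il33 start, not shown, held it at -203 to -198. In Il18 it lay on the minus strand at -175 to -170. TATAAA was found in 12.4% of 32851 mouse promoter windows of this length. The letters are a description and no binding was measured.

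The other 35 ligands and antagonists did not pass the call. Il16, a chemoattractant made from a larger precursor, lay far above the olfactory receptor level with nearly level signals, 10.94 and 10.99 on the visceral arrays and 10.92 and 10.86 on the parietal arrays (log2 difference 0.078, 95% interval -0.13 to 0.28). Il27, the ligand-specific subunit of interleukin-27, had 7.89 and 8.05 on the visceral arrays and 8.01 and 8.15 on the parietal arrays, with the tissues overlapping. Il7, the growth factor of lymphocytes, had the widest spread of these, at 7.08 and 7.31 on the visceral arrays and 7.30 and 8.02 on the parietal arrays. Its difference was -0.46 (adjusted p = 0.290), and 1 array decided it, since without parietal replicate 1 it became -0.83 with an adjusted p of 0.0104. Il17d lay at 7.13 and 7.28 on the visceral arrays and 7.66 and 7.46 on the parietal arrays (-0.36, adjusted p = 0.0935), and Il31, an itch cytokine of T cells, differed by -0.25 (adjusted p = 0.133). The remaining 6 ligands above the olfactory receptor level, Il9, Il13, Il15, Il17b, Il17c and Il25, had signals between 6.75 and 7.44 on every array and differences between -0.098 and 0.048.

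Many ligands of acute inflammation and of helper T cells had a mean at or below the olfactory receptor level. Il6 had signals of 4.49 and 4.54 on the visceral arrays and 4.61 on each parietal array, and Il1b, the fever-inducing product of macrophages, had 5.68 and 5.76 on the visceral arrays and 5.72 and 5.67 on the parietal arrays. Il10, the inhibitory cytokine whose receptor chain is described below, had 5.33 and 5.47, against 5.37 and 5.30. None of these reached the call and only Il6 had tissues that did not overlap. Among the 24 ligands and antagonists at or below this level, which include Il2, Il4, Il5, Il12a, Il12b, Il17a, Il17f, Il21 and Il23a, differences ran between -0.23 and 0.41. The upper end was Il1a, an alarmin of epithelia, with 5.14 and 5.31 on the visceral arrays and 4.86 and 4.77 on the parietal arrays. It passed the adjusted p (0.0456) at a fold of 1.33, and its signals lay near the median of the olfactory receptor genes, 5.09. Il1rn, the interleukin-1 receptor antagonist, had 6.79 and 6.84 on the visceral arrays, against 6.57 and 6.58 on the parietal arrays (log2 difference 0.24, adjusted p = 0.126). The genes listed under the older names Il1f5, Il1f6, Il1f8, Il1f9 and Il1f10, which encode interleukin-36 and related ligands of epithelia, gave no call.

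**Figure D3:**
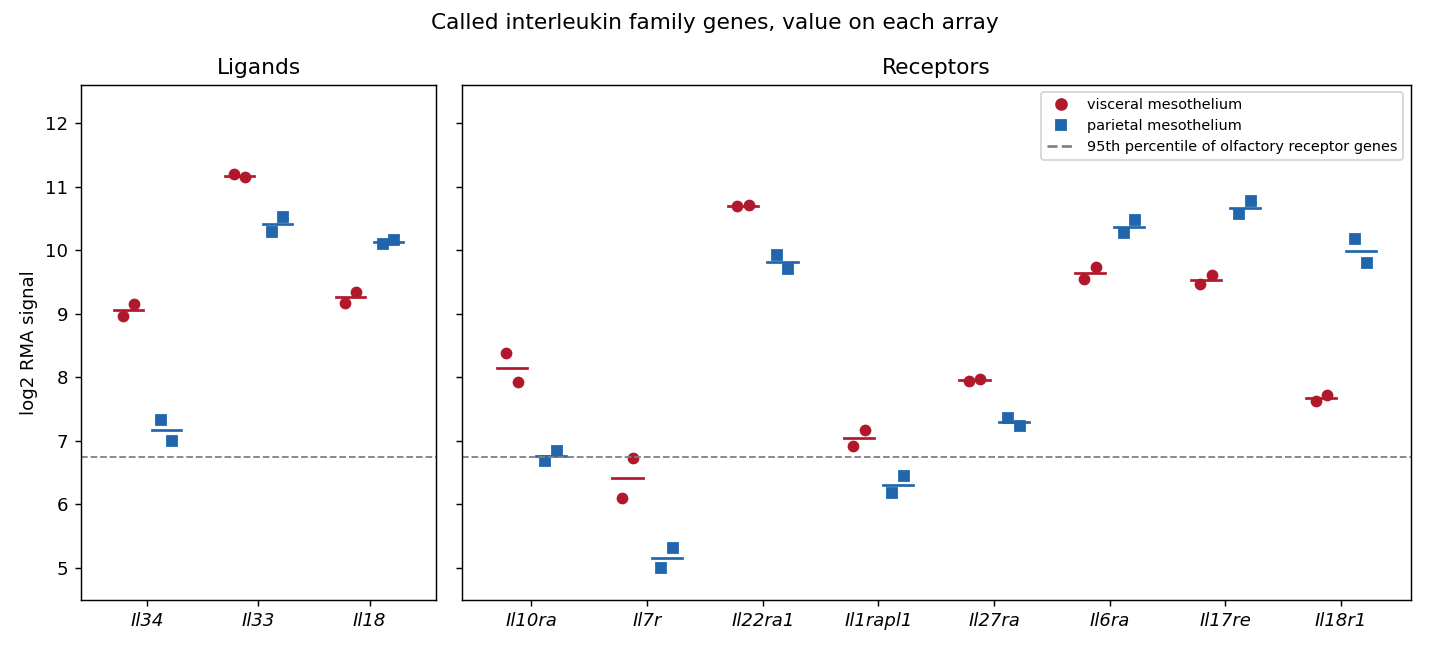
Log2 RMA signal (y axis) of the 11 called members on each array, ligands at the left and receptors at the right, circles standing for visceral and squares for parietal arrays and a bar at the mean of 2 arrays. The dashed line is the olfactory receptor level of 6.74. The genes were picked by the call, so the separation of their arrays adds no support to it.

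The interleukin-18 receptor gave the largest difference of the 76 members. Il18r1, the chain that binds the ligand, had log2 signals of 7.63 and 7.73 on the visceral arrays, against 10.17 and 9.80 on the parietal arrays. The parietal arrays were both far higher than the visceral ones, and the gene was 4.94-fold higher in parietal mesothelium (log2 difference -2.30 ± 0.14, limma adjusted p = 0.000428). The call held without each array, between -2.49 and -2.12. Its ligand Il18 was higher in the same tissue, as given above. Il18rap, the accessory chain needed for signalling, lay at 5.97 and 5.95 on the visceral arrays and 5.99 and 5.95 on the parietal arrays, all below the olfactory receptor level (log2 difference -0.012, 95% interval -0.21 to 0.19). Il18bp, a secreted protein that traps the ligand, lay at 9.62 and 9.50 on the visceral arrays, against 9.39 and 9.36 on the parietal arrays (log2 difference 0.18, adjusted p = 0.254). T and NK cells are the textbook bearers of this receptor. Of their 12 markers 8 were not above the olfactory receptor level, and none was called with parietal mesothelium higher. Cd3e, Cd8a, Cd8b1 and Prf1 lay above the olfactory receptor level and were not called, and Cd3g, below that level, was higher in visceral mesothelium (log2 difference 0.72, adjusted p = 0.0111). The muscle markers were higher in parietal mesothelium together with Il18 and Il18r1. The part of muscle, and that of T and NK cells, in these results was not tested.

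In the order of RefSeq genes on chromosome 1, Il18r1 lies next to Il18rap and, with 1 coding gene between them, to Il1rl2, a receptor of interleukin-36. Il1rl2 had signals of 7.46 and 7.85 on the visceral arrays and 7.48 and 7.10 on the parietal arrays (log2 difference 0.37, adjusted p = 0.258), and the decoy receptor Il1r2, the next member along, differed by -0.060. Of these 4 related receptor genes of 1 region, Il18r1 was the member that was called.

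Il17re and Il6ra were the other receptors higher in parietal mesothelium. Il17re, the chain that binds interleukin-17C on epithelial cells, had 9.47 and 9.60 on the visceral arrays, against 10.56 and 10.77 on the parietal arrays. The groups were clearly apart, and the gene was 2.19-fold higher in parietal mesothelium (log2 difference -1.13 ± 0.11, limma adjusted p = 0.00201), between -1.24 and -1.03 with an array left out. Its neighbour on chromosome 6, Il17rc, a chain for interleukin-17A and F, had 9.52 and 9.71, against 9.79 and 9.84 (log2 difference -0.20, adjusted p = 0.275). Il17ra, the chain that these receptors share, had 8.40 and 8.62 on the visceral arrays, against 8.85 and 8.95 on the parietal arrays, with no overlap but without passing the call (-0.39, adjusted p = 0.0714). The related Il17rd differed by -0.29 (adjusted p = 0.123), although a dimmer probe of the gene gave 7.62 and 7.79 on the visceral arrays and 7.65 and 7.75 on the parietal arrays, which overlap. Il17rb, the receptor of interleukin-25, stood below the olfactory receptor level on the mean of the arrays and differed by 0.13. Both the muscle list and 9 of the 15 mesothelial markers, such as Msln (log2 difference -2.14), were higher in parietal mesothelium together with Il17re and Il6ra, and their part was not tested.

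For Il6ra, which binds interleukin-6, the visceral arrays gave 9.55 and 9.74 and the parietal arrays 10.26 and 10.47. No array crossed between the tissues, and the gene was 1.65-fold higher in parietal mesothelium (log2 difference -0.73 ± 0.11, limma adjusted p = 0.0121). This call was lost without visceral replicate 1, where the log2 difference was -0.63 with an adjusted p of 0.0530. Il6st, the signalling chain gp130 that the interleukin-6 family shares, had signals of 12.47 and 12.44 on the visceral arrays and 12.81 and 12.95 on the parietal arrays. Its difference of -0.43 passed the adjusted p (0.0300) but not the fold. Il31ra, the neighbour of Il6st on chromosome 13 and a chain of the interleukin-31 receptor, had 8.57 and 8.85 on the visceral arrays, against 8.15 and 8.57 on the parietal arrays (log2 difference 0.35, adjusted p = 0.255). The differences of these neighbours had opposite signs, and neither gene was called.

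**Figure D4:**
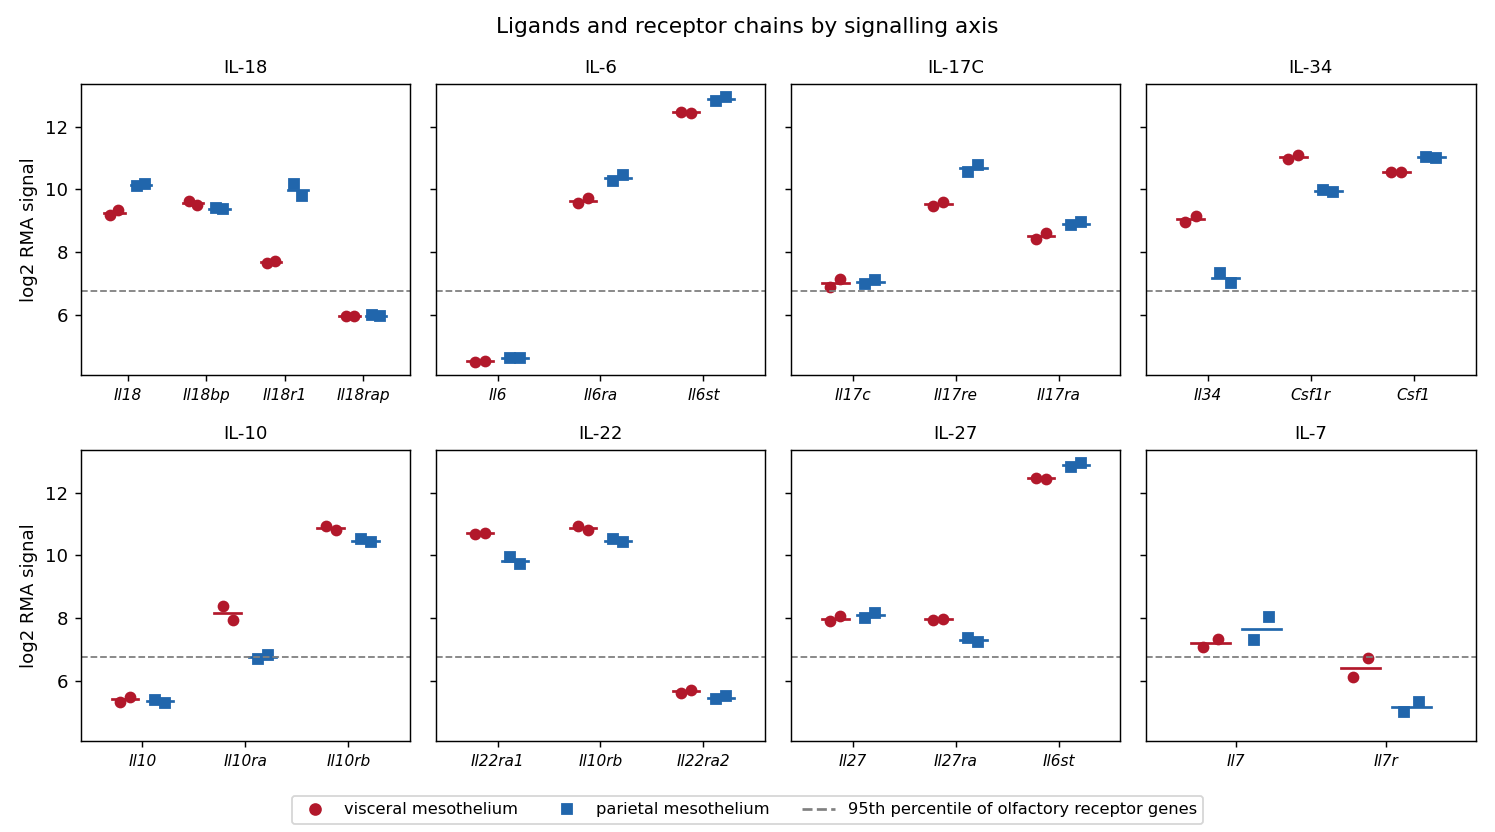
Log2 RMA signal (y axis) of ligands, receptor chains and binding proteins of 8 signalling axes on each array, circles standing for visceral and squares for parietal arrays. Heights can be compared between tissues for the same gene but not between genes. Il18 and Il18r1 are higher on the parietal arrays while Il18rap stays below the dashed olfactory receptor level of 6.74, and Il34 and Csf1r are higher on the visceral arrays.

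Among the receptors higher in visceral mesothelium, Il10ra had the largest difference. This chain binds interleukin-10 and is borne chiefly by leukocytes. Its signals were 8.38 and 7.92 on the visceral arrays, against 6.69 and 6.83 on the parietal arrays, so that the parietal values lay around the olfactory receptor level and the visceral values above it. Il10ra was 2.62-fold higher in visceral mesothelium (log2 difference 1.39 ± 0.16, limma adjusted p = 0.00428), and between 1.16 and 1.62 without an array. Il10rb, which pairs with it and with the receptors of interleukin-22 and others, had 10.94 and 10.81 on the visceral arrays, against 10.50 and 10.43 on the parietal arrays. Its difference of 0.41 passed the adjusted p (0.0366) at a fold of 1.33. Macrophage markers moved with Il10ra, with Adgre1 (1.63), Cd68 (1.63), C1qa (2.36) and Mrc1 (2.69) higher in visceral mesothelium on the log2 scale, and their part in the difference was not tested.

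Il22ra1, the receptor chain that gives epithelia their response to interleukin-22, had 10.69 and 10.71 on the visceral arrays, against 9.93 and 9.70 on the parietal arrays. The visceral arrays nearly coincided and both exceeded the parietal ones. The gene was 1.85-fold higher in visceral mesothelium (log2 difference 0.88 ± 0.10, limma adjusted p = 0.00415). A dimmer probe of the same gene read 9.24 and 9.10 on the visceral arrays, against 8.71 and 8.41 on the parietal arrays, which is the same order. Il22ra2, a soluble decoy for the ligand, lay below the olfactory receptor level and differed by 0.20. Il20rb, the chain that pairs with Il22ra1 for interleukin-20 and interleukin-24, had 8.58 and 8.88, against 8.81 and 8.72, with the tissues overlapping.

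The upstream windows of Il18r1 and Il22ra1 are shown as those of the receptor with the largest difference and of an epithelial receptor that was higher in visceral mesothelium. They come from the plus strand of GRCm38.p6 in RefSeq, at chr1:40465756-40466005 for the third of 3 listed starts of Il18r1 and at chr4:135727909-135728158 for Il22ra1. Capitals mark the STAT motif TTCNNNGAA in Il18r1, and in Il22ra1 the AP-1 motif TGANTCA and, nearer the start, a match to the NF-kB motif. Both strands were searched, and the STAT and AP-1 motifs read alike on each.
Il18r1: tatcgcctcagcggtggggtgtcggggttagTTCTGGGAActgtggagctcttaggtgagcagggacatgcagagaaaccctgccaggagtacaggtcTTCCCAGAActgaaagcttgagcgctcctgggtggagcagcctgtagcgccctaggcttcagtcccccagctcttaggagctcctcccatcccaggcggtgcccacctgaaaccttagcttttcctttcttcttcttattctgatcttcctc
Il22ra1: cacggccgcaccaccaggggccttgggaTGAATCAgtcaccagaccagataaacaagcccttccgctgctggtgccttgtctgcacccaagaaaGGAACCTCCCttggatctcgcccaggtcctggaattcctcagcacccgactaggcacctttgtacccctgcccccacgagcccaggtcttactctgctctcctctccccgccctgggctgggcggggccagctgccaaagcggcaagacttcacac
The STAT motif occurred in the Il18r1 window at -219 to -211 and again at -152 to -144, and the windows of the other listed starts of the gene held none of the 4 motifs searched. In Il22ra1 the AP-1 motif lay at -222 to -216 and the NF-kB match on the minus strand at -156 to -147. Over 32851 mouse promoter windows, 7.02% held the STAT motif, 6.75% the AP-1 motif and 7.25% the NF-kB motif. None of the 4 was found in the windows of Il17re, Il6ra and Il1rapl1, and the window of Il7r held the STAT motif at -142 to -134.

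Il27ra, Il7r and Il1rapl1 completed the receptors higher in visceral mesothelium. Il27ra, which signals with gp130, had 7.94 and 7.97 on the visceral arrays, against 7.36 and 7.23 on the parietal arrays, without overlap. It was 1.57-fold higher in visceral mesothelium (log2 difference 0.65 ± 0.09, limma adjusted p = 0.00689), between 0.59 and 0.72 with an array left out. Il7r, the interleukin-7 receptor of lymphocytes and their precursors, had 6.10 and 6.73 on the visceral arrays, against 5.004 and 5.31 on the parietal arrays. All 4 values lay below the olfactory receptor level, so the fold of 2.39 (log2 difference 1.26 ± 0.22, adjusted p = 0.0170) rests on dim signals. Of the lymphocyte lists, B and plasma cell markers gave 5 visceral calls of 10 and T and NK cell markers 1 of 12. Markers of group 2 innate lymphoid cells gave none of 7. The part of these cells was not tested. Il1rapl1, a relative of the interleukin-1 accessory protein known from synapses, had 6.91 and 7.18, against 6.17 and 6.44, which places the parietal arrays below that level. Its 1.67-fold difference (log2 difference 0.74, adjusted p = 0.0205) was lost without visceral replicate 2, where it was 0.61 with an adjusted p of 0.0833.

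The remaining receptor chains did not pass the call. Il4ra and Il13ra1, the chains of the signalling receptor of interleukin-4 and interleukin-13, were well above the olfactory receptor level in both tissues, whereas Il13ra2, a decoy receptor of interleukin-13, lay between 4.36 and 4.61 on the 4 arrays. Il4ra had 9.27 and 9.31 on the visceral arrays, against 9.74 and 9.48 on the parietal arrays (log2 difference -0.32, adjusted p = 0.123), and Il13ra1 had 9.03 and 8.82, against 9.35 and 9.25 (-0.37, adjusted p = 0.0710). In both genes the tissues did not overlap, and the 95% intervals ran between -0.59 and -0.05 for Il4ra and between -0.63 and -0.12 for Il13ra1. These intervals are not adjusted for the number of genes, and 5408 of all 19938 genes had an unadjusted limma p under 0.05. Il1rap, the accessory chain of the interleukin-1, interleukin-33 and interleukin-36 receptors, had 8.35 and 8.31, against 8.53 and 8.57 (-0.22, adjusted p = 0.144). Il15ra, which presents interleukin-15 to lymphocytes, had 8.32 and 8.60 on the visceral arrays, against 8.09 and 8.05 on the parietal arrays (log2 difference 0.39, adjusted p = 0.0848), and Il3ra differed by 0.24. Il12rb1, a chain for interleukin-12 and interleukin-23, had 7.39 and 7.83, against 7.52 and 7.68, with the tissues overlapping. The 14 uncalled receptors at or below the olfactory receptor level differed by -0.29 to 0.40, among them Il23r at 0.40 and Il2ra, the high-affinity chain for interleukin-2, also at 0.40 (adjusted p = 0.232). Il2ra was called without visceral replicate 1, at 0.67 with an adjusted p of 0.0264.

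Genes beyond the family that make up its pathways were taken from 7 lists. Of their 102 measured genes, 13 were called with visceral mesothelium higher and 2 with parietal mesothelium higher, together 14.7%, beside 9.60% of all genes (5.22% for visceral and 4.39% for parietal mesothelium). No set test was made on these lists. Of 17 shared chains and relatives of interleukin receptors, 5 were higher in visceral mesothelium and none in parietal mesothelium, with a median difference of 0.17. Csf1r, the receptor of interleukin-34, had log2 signals of 10.97 and 11.10 on the visceral arrays, against 9.99 and 9.92 on the parietal arrays (log2 difference 1.07, adjusted p = 0.00127 from limma). The receptor was thus higher in the same tissue as its ligand Il34. It also stands on the macrophage list above, whose part in this was not tested. Csf1, the other ligand of Csf1r, had 10.54 on each visceral array, against 11.04 and 11.01 on the parietal arrays, and its difference of -0.48 passed the adjusted p (0.0136) but not the fold. The chain Lifr, a partner of gp130, differed by 1.41, and the chains Csf2ra, Csf2rb and Csf2rb2, which serve interleukin-3, interleukin-5 and GM-CSF or their kin, by 0.95, 0.83 and 0.70. The call of Csf2rb2 was lost without visceral replicate 2, at 0.55. None of 14 ligands of these receptors was called.

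Inside the cell, most signalling genes did not pass. Of 9 JAK kinases and STAT factors, Stat4, which conveys interleukin-12 signals in lymphocytes, was called, with 7.57 and 7.53 on the visceral arrays, against 5.56 and 5.63 on the parietal arrays (log2 difference 1.95, adjusted p = 0.000147 from limma). Its parietal signals lay below the olfactory receptor level. Of 15 feedback inhibitors, Pias1 was higher in visceral mesothelium (0.60) and Cish, a STAT5 target that damps its own receptors, higher in parietal mesothelium (-0.89). Among 20 adaptors and kinases of the interleukin-1 and interleukin-17 receptors, Ikbkb was higher in visceral mesothelium (0.67) and Nfkbiz, a nuclear cofactor of NF-kB, higher in parietal mesothelium. Nfkbiz had 9.43 and 9.36 on the visceral arrays, against 10.15 and 10.35 on the parietal arrays (log2 difference -0.85, adjusted p = 0.00426). Of 16 inflammasome and processing genes, the DNA sensor Aim2 (1.04) and Casp8 (0.71) were higher in visceral mesothelium, while Casp1, which cleaves interleukin-18, differed by 0.25 without passing. The calls of Pias1, Casp8 and Cish depended on single arrays. Pias1 was lost without visceral replicate 1 (0.65, adjusted p = 0.0539), without visceral replicate 2 (0.56, adjusted p = 0.0830) and without parietal replicate 1 (0.49, adjusted p = 0.0602). Casp8 was lost without visceral replicate 1 (0.66, adjusted p = 0.0867), visceral replicate 2 (0.76, adjusted p = 0.0638) or parietal replicate 2 (0.54, under the fold). Cish was lost without visceral replicate 2 (-0.57, under the fold) or parietal replicate 2 (-0.84, adjusted p = 0.0764).

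Of 11 genes known downstream of interleukin-4, interleukin-5, interleukin-13 and interleukin-33, 3 were higher in visceral mesothelium and none in parietal mesothelium. Retnla, a secreted product of alternatively activated macrophages, had 11.93 and 12.62 on the visceral arrays, against 8.34 and 9.60 on the parietal arrays (log2 difference 3.31, adjusted p = 0.00618 from limma). The mannose receptor Mrc1 differed by 2.69, and the eosinophil chemokine Ccl24 had 8.24 and 8.58 on the visceral arrays, against 7.03 and 7.22 on the parietal arrays (1.29, adjusted p = 0.00316). These 3 genes were higher in the tissue in which Il33 was higher, and a link to Il33 was not tested. The other 8 were not called, among them Alox15 (0.79), Arg1 (0.04), Ccl17 (-0.08) and Ccl22 (0.07). Of the 11 genes, 6 were not above the olfactory receptor level. Mrc1 is also a macrophage marker, and the part of macrophages in the 3 differences was not tested. The markers of group 2 innate lymphoid cells, textbook targets of interleukin-33, gave no call among 7 genes, at list means of 6.88 and 6.97 on the visceral arrays and 6.80 and 6.89 on the parietal arrays, with 5 of the 7, Gata3 among them, not above the olfactory receptor level.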

How the data were processed

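RNA of visceral (omentum) and parietal (body wall) mesothelium was hybridized to 4 Affymetrix Mouse Gene 1.0 ST arrays, 2 a tissue. The authors normalized the arrays by RMA and deposited log2 values, for which the submitters' processing notes give Partek 6.6 as the software. For the array library version, no source used here gives a value.

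The deposited values were used unchanged. Of 35556 probes, 21789 carried 1 symbol in the platform annotation, 1621 several and 12146 none. Symbols were looked up in RefSeq (GRCm38.p6) by gene identifier, where 21698 probes were found and 0 symbols changed. The probe with the highest mean over the arrays stood for its gene, of which 999 had several. Tissues were tested against each other over 19938 genes by limma 3.58.1 (R 4.3.3), without a block, and the code was tested on simulated data. Array depth cannot be stated, and the number of arrays limits the precision. Intervals are 95% intervals from limma for each gene alone, not adjusted for the number of genes.

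The members, the lists and the rule for named genes were chosen with earlier results of these data known. Named are all called members, those above the olfactory receptor level, partners of called members, the 5 uncalled members with the largest difference, up to 4 called genes of each pathway list and some markers. Chosen after their values were seen were several dim ligands and receptors, Csf1, Casp1, Alox15, Arg1, Ccl17 and Ccl22. So were the named markers of T cells, macrophages, dendritic cells, adipocytes, fibroblasts and endothelium. The alternatives were a repeated quantile normalization, scaling to a common median, a trended robust prior, the mean of a gene's probes, a filter on dim genes, no fold threshold, the methods' one-way ANOVA, a block for the replicate number and the omission of each array in turn. Scan dates were not used here.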

Additional observations from a re-analysis of the deposited data

How the results depend on the processing

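Counts of called ligands and receptors in each tissue were recomputed under each alternative. The repeated quantile normalization, the scaling to a common median, the trended robust prior, the mean of a gene's probes and the replicate block gave the same 4 counts, ligands 2 for visceral and 1 for parietal mesothelium and receptors 5 and 3. The replicate numbers do not establish pairs of animals, and deviations of same-numbered arrays from their tissue means correlated at 0.356 over genes. With the replicate block 1087 genes in all were called for visceral and 921 for parietal mesothelium, against 1040 and 875 without it.

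Among genes above the olfactory receptor level 3 receptors were higher in visceral mesothelium, as Il7r and Il1rapl1 were not tested there. Without a fold threshold the pathway genes higher in parietal mesothelium numbered 6 in place of 2, and all genes higher in visceral mesothelium 1574. The methods' one-way ANOVA, which estimates the spread from 4 values alone, left 0 calls after Benjamini-Hochberg adjustment for ligands, receptors, pathway lists, marker lists and all genes in either tissue, with a lowest adjusted p of 0.0861 over genes and 0.155 over members. At an unadjusted p under 0.05 with the fold it called 2 ligands, 3 receptors and 11 pathway genes for visceral and 1, 3 and 1 for parietal mesothelium, and did not call Il7r and Il1rapl1. The authors report genes higher in either tissue from the adjusted ANOVA at the same thresholds. Why 0 were called here was not examined.

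With each array left out, visceral counts were 2 throughout for ligands, 4 to 6 for receptors, 11 to 14 for pathway genes, 32 to 33 for marker genes and 955 to 1141 for all genes, and parietal counts were 1 to 2, 2 to 3, 1 to 2, 29 to 37 and 741 to 954. Lone arrays were then assumed to vary like the other tissue. The 2 parietal ligands came without parietal replicate 1, with Il7. Pathway genes in parietal mesothelium fell to 1 without visceral replicate 2 or parietal replicate 2.

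A change of sign occurred among the named genes only for uncalled ones near 0. It occurred for Il12rb1 (-0.00214) and Il18rap (0.00281) after repeated quantile normalization, and for Il12rb1 (-0.0428), Il17b (-0.0429), Il1b (-0.0268), Il25 (-0.0162) and Il9 (-0.00621) after scaling to a common median. With an array left out, Il17c ranged between -0.16 and 0.11, Il20rb between -0.19 and 0.12, Il10 between -0.0027 and 0.14, Il12rb1 between -0.21 and 0.23, Il17b between -0.0315 and 0.055, Il1b between -0.0117 and 0.067, and Il18rap between -0.035 and 0.012. Scaling to a common median moved the median difference of all genes to -0.053. Pias1 fell under the fold after that scaling (0.55).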
